A study of Vitis vinifera with 2 samples.

Results

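The loci described here are stretches of the grape (Vitis vinifera) genome from which RNA was sequenced and assembled into a transcript model, and to which the deposited tables give no gene name. They were chosen by rule from the transcript tables of both libraries: models whose identifier begins with MSTRG and whose gene name is blank, in loci that hold no named transcript and whose summed FPKM reached 1 in at least 1 library. FPKM counts fragments per kilobase of transcript, relative to the size of the library. Of 974 unnamed loci, 969 passed, among 30485 genes and loci in the tables. The level in the libraries thus chose the members, and levels are given as a description.

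The data were 1 RNA library from wounded grape tissue that had received sterile water (the control) and 1 from tissue given a suspension of the yeast Yarrowia lipolytica. Each wound had received 10 µL, and tissue was taken 3 days after treatment at 20 °C. Both samples, the control included, carry the yeast's name as strain, so the titles and the treatment protocol set the groups, and the labels name no cultivar, cell type or number of fruits, so no cell type marker could be checked against them. With n = 1 in each group there is no replicate check on any difference, and neither tests nor p-values are reported. In total RNA from a tissue, fewer cells of a type and less RNA per cell cannot be told apart. The control library held 19010746 fragment equivalents of 300 aligned bases and the yeast library 20540965. Where 2 FPKM values are given together, the control comes first. Intervals in brackets are exact binomial 95% intervals on these equivalents and cover counting error only.

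Transcript assembly joins overlapping reads into models whether or not a gene is annotated there. Loci without an annotated gene are known to include long noncoding RNAs, genes missed by annotation, detached ends of known genes, transcripts of repeats and fragments of unspliced RNA. A read that crosses an intron shows the strand through the splice site, whereas in a library that does not mark strand a read within 1 exon does not, so an assembler may leave the strand of a single-exon model open. Whether these libraries mark strand was not given in the sources used here. No genome of the build behind the files was used, so no sequence of a locus is shown, and its coding capacity and repeat content were not examined.

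The unnamed loci were short and mostly unspliced. A single exon made up 825 of 969 loci (85.1%), against 1610 of the 15071 other genes measured by the same minimum (10.7%). Another 118 loci had 2 exons, 16 had 3, and 10 had more, up to the 7 exons of MSTRG.16968 on a scaffold (403 to 4551, minus strand, 2.12 FPKM in the control and 1.04 in the yeast library). The median length of the longest transcript was 550 bases, against 1692 bases in the other genes. Lengths ran from 201 bases to the 10596 bases of MSTRG.4908, a model of 1 exon on chromosome 6 (14560860 to 14571455, minus strand) with 5.34 and 8.27 FPKM.

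No strand was assigned to 643 loci, all of them with 1 exon. Of the remainder, 184 lay on the minus strand and 142 on the plus strand, and 182 of these 326 also had a single exon. A second transcript was rare: 948 loci held 1 transcript and MSTRG.11348 on chromosome 14 (23244901 to 23254151) held the most, 5, with 6.57 and 6.75 FPKM. Among the 178 loci whose higher FPKM was at least 10, the share with 1 exon was 75.3% and the share without strand 41.6%, so the better expressed loci were more often spliced or stranded than the whole set.

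The 19 chromosomes held 754 loci, from 23 to 53 each, and 215 (22.2%) lay on 174 scaffolds, against 8.21% of the other measured genes. None lay on the plastid or mitochondrial sequence, and none overlapped the span of the stilbene synthase genes STS and VINST1 on chromosome 16. A start at the first base of its sequence was found for 19 loci, 17 of them on scaffolds. The annotated models had been searched for overlaps on either strand, and 1 locus met one: MSTRG.10634 on chromosome 13 (22263235 to 22264180, minus strand, 1.26 and 0.575 FPKM), which overlaps the pseudogene LOC104881316 on the same strand. A further 17 loci overlapped only an assembled model that carries a gene name. The rule keeps out loci that hold a named transcript, and 83 models without strand that overlap an annotated gene carry its name. Few overlaps were thus left to find, and their number does not show how often unannotated RNA overlaps genes. For 85 loci the scaffold had no annotated model. For the 884 others the median distance to the nearest annotated model was 3845 bases, and 154 lay within 1 kb without overlap.

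Whether a strandless model carried a name went with its side of, and distance from, the nearest gene. Assembled models also carry gene names in 4087 cases, 274 of which are single-exon models without strand. Of these 274, 83 overlapped the annotated gene whose name they carry and 191 lay past its end, at most 1983 bases from it, while none lay before its start. Among unnamed loci without strand the pattern was the reverse: 217 lay past the end of their nearest annotated gene, and none of these was within 2 kb, the nearest being 2020 bases away. Before a gene's start, 132 of 363 such loci were within 2 kb, the nearest at 37 bases. A strandless model up to 2 kb past a gene's end was therefore named after that gene in these tables and one before its start was not. Loci with a strand did not follow this boundary, since 56 of 140 past a gene's end and 71 of 163 before a start were within 2 kb.

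**Figure D1:**
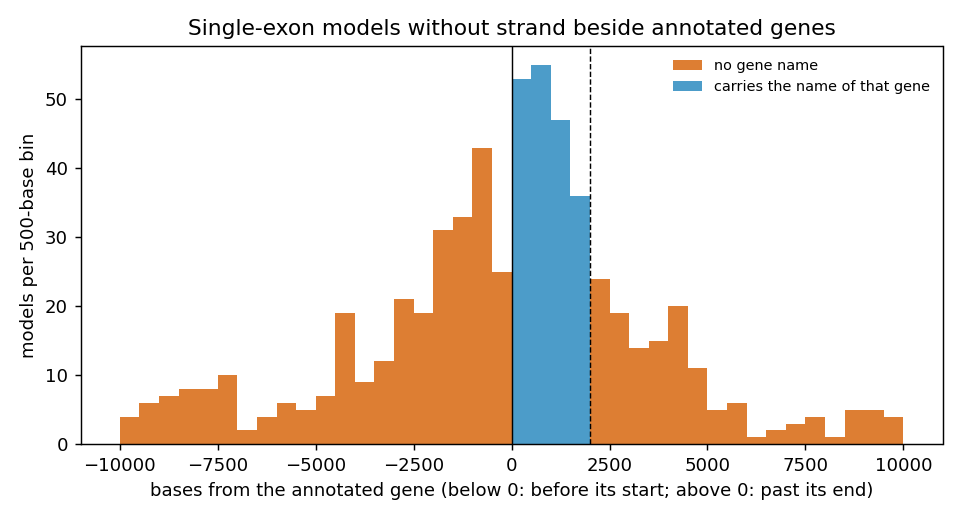
Number of single-exon models without strand per 500-base bin (vertical axis) by distance in bases from the nearest annotated gene for models with no gene name, and from the gene whose name they carry for named models (horizontal axis, below 0 before the gene's start and above 0 past its end). Named models fill the first 2 kb past gene ends, out to 1983 bases, and unnamed ones begin at 2020 bases on that side and at 37 bases before gene starts.

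Most unnamed loci were expressed near the minimum. The higher of a locus's 2 FPKM values had a median of 2.16, against 11.7 in the other genes, and it was under 2 in 446 loci (46.0%). The 3 loci just inside the minimum were MSTRG.12663 (1.03 FPKM in the control and 0 in the yeast library), MSTRG.17365 (0.0833 and 1.04 FPKM) and MSTRG.14769 (0.324 and 1.04 FPKM). Just outside it were MSTRG.16230 (0.674 and 0.978 FPKM), MSTRG.3789 (0.688 and 0.870 FPKM) and MSTRG.16358 (0.619 and 0.444 FPKM). An FPKM of at least 1 was reached in both libraries by 576 loci (59.4%), in the control alone by 210 and in the yeast library alone by 183. Loci of those last 2 kinds passed through the library where they were high. Of the 15071 other genes, 13688 (90.8%) reached it in both libraries, 1004 in the control alone and 379 in the yeast library alone. The median locus rested on 22.9 fragment equivalents in the control and 23.7 in the yeast library, against 355 and 319 in the other genes.

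**Figure D2:**
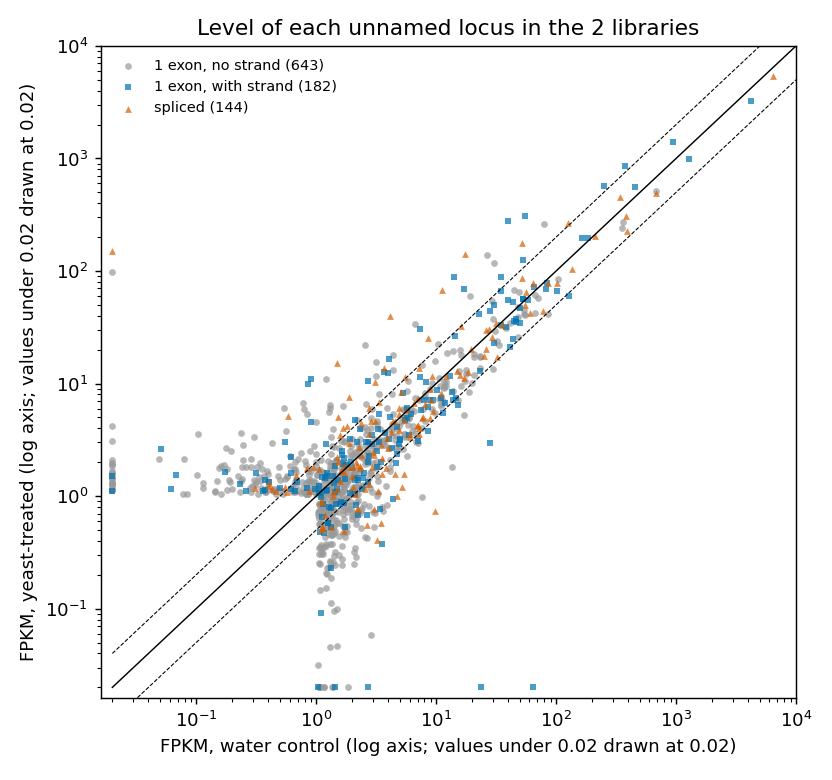
FPKM of each of the 969 unnamed loci in the water control (horizontal, log axis) and in the yeast library (vertical, log axis), with 1 point per locus, a solid line at equal values and dashed lines at 2-fold. Single-exon loci without strand (643) crowd around 1 FPKM, and the corner below 1 in both libraries is empty because of the minimum.

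Together the loci held 3.13% of all FPKM in the control and 3.18% in the yeast library, and most of that came from few of them. The 10 most abundant held 64.6% of the loci's FPKM in the control and 60.2% in the yeast library. The first was MSTRG.15190, a model of 3 exons on chromosome 19 (2789404 to 2790361, minus strand), with 6381 FPKM in the control and 5397 in the yeast library, 0.846 times the control (0.838 to 0.854). Its nearest annotated gene, LOC100252052 (misc_RNA in RefSeq) on the opposite strand 759 bases away, had 32.5 and 27.6 FPKM. MSTRG.16735, a single exon on a scaffold with no annotated gene (100557 to 101225, plus strand), followed with 4237 and 3264 FPKM, 0.770 times the control (0.761 to 0.780). Both were lower in the yeast library by less than 2-fold.

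Of the next 8 loci, 5 were higher in the yeast library and 3 lower. MSTRG.10665 on chromosome 13 (22988593 to 22989094) had 942 and 1397 FPKM, 1.48-fold higher (1.45 to 1.52). MSTRG.11847, at the first bases of chromosome 15 (1 to 469), had 1282 and 988 FPKM. MSTRG.16828 and MSTRG.16414, both on scaffolds, had 684 and 519 FPKM and 457 and 555 FPKM. MSTRG.12662 on chromosome 16 had 682 and 492 FPKM.

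Of the 10, the pair past 2-fold was MSTRG.2399 and MSTRG.7108. MSTRG.7108 is a single exon on chromosome 8 (21387920 to 21388660, minus strand), and it had 252 and 567 FPKM, 2.25-fold higher (2.17 to 2.34). MSTRG.7107, a spliced locus on the same strand just beside it (21380050 to 21386626), had 343 and 455 FPKM, 1.33-fold higher (1.26 to 1.40). The nearest annotated genes of this pair went the other way, LOC100260662 at 21.8 and 10.4 FPKM and LOC100246952 at 9.40 and 5.88 FPKM. MSTRG.2399 has a twin on the opposite strand and is described with such pairs.

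Differences between the libraries were counted at 2-fold on log2((yeast FPKM + 1)/(control FPKM + 1)). At least 2-fold higher in the yeast library were 110 of 969 loci (11.4%), against 6.26% of all 16040 measured genes, and at least 2-fold lower were 63 (6.50%), against 3.66%. At 4-fold the counts were 20 higher (2.06%, against 1.95% of all genes) and 6 lower (0.619%, against 0.206%). The loci were thus past 2-fold more often in both directions. Their median log2 ratio was -0.14, and that of all measured genes -0.28. Of the loci past 2-fold, 63.6% were higher. Over all measured genes the split was similar, with 1004 higher and 587 lower. The share of the loci was 76.7% once ratios were rescaled so that the median over all genes lay near 0 (-0.02). There 158 loci were higher and 48 lower, and the median of the loci turned to 0.09. Rescaling multiplied the yeast FPKM of every gene by 1.23. Loci that passed the minimum through 1 library had to differ to some extent, and 43 of the 110 higher and 27 of the 63 lower loci had under 30 fragment equivalents over both libraries. With a pseudocount of 5 in place of 1 the counts were 36 higher and 8 lower, and with 0.1 they were 192 and 172. Counts over all genes were not made after rescaling or with these pseudocounts, so those shares cannot be called particular to the unnamed loci.

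Over all levels, single-exon genes that carry a name gave nearly the same shares as the unnamed loci: 180 of 1610 (11.2%) were higher and 102 (6.34%) lower. Their levels were not alike, since 766 of the 1610 genes and 178 of the 969 loci reached 10 FPKM. Their lengths differed too, with a median of 1195.5 bases in these genes and 550 in all unnamed loci. At equal FPKM a shorter model rests on fewer fragments, so bins of FPKM do not even out counting error. Within each bin of FPKM the unnamed loci had the larger higher share, for example 8.52% against 1.07% at 1 to 2 FPKM and 8.47% against 7.94% at 2 to 5 FPKM. At 1 to 2 FPKM a locus or gene counted as higher must have a control value under 1 FPKM. It thus passed the minimum through the yeast library alone, so nothing is read from the higher share in that bin. The lower share was larger in some bins and smaller in others. Among loci with an FPKM of at least 10, 37 of 178 (20.8%) were higher, against 8.33% of all genes at that level and 17.1% of 766 named single-exon genes. Lower at that level were 10 loci (5.62%), against 2.79% of all genes and 6.01% of named single-exon genes. Without 16 loci that share their span with a model on the opposite strand, described further on, 33 of 162 (20.4%) were higher and 7 (4.32%) lower. In the top bin, over 100 FPKM, 12 of 32 loci (37.5%) were higher, against 15.8% of other genes and 24.5% of those with 1 exon. Lower in that bin was 1 locus (3.1%), against 1.58% and 2.5%. The 12 include MSTRG.7818 and MSTRG.2399, which are among the loci that share their span with a model on the opposite strand.

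**Figure D3:**
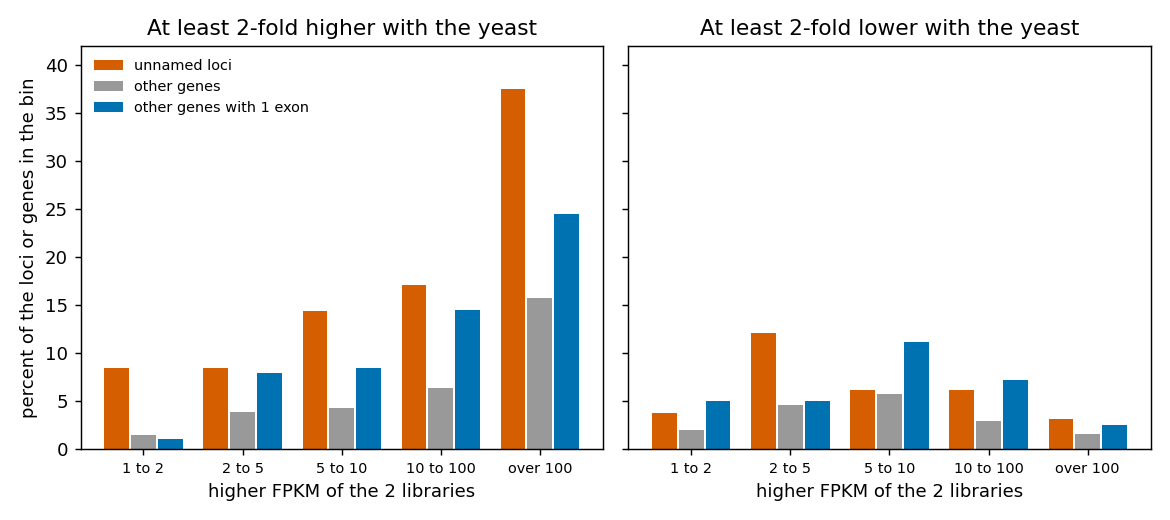
Percent of loci or genes at least 2-fold higher (left) and lower (right) in the yeast library, by the higher FPKM of the 2 libraries, for the unnamed loci, all other measured genes and those of them with 1 exon. The higher share of the unnamed loci runs from 8.52% between 1 and 2 FPKM to 37.5% over 100 FPKM, where it is 15.8% in other genes and 24.5% in those with 1 exon. Between 1 and 2 FPKM, loci and genes counted as higher all passed the minimum through the yeast library alone.

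By structure, 74 of 643 strandless loci (11.5%), 23 of 182 stranded single-exon loci (12.6%) and 13 of 144 spliced loci (9.03%) were higher, and the lower shares were 6.38%, 6.59% and 6.94%. These kinds of locus were close to each other in both directions. On chromosomes 97 of 754 loci (12.9%) were higher, and on scaffolds 13 of 215 (6.05%), while the lower shares were 6.50% and 6.51%. The same split is not given for other genes, so the gap cannot be called particular to the unnamed loci.

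The highest ratios among loci with at least 10 FPKM and 30 fragment equivalents went to single-exon and spliced models alike. MSTRG.16967, a model of 5 exons on a scaffold without annotated genes (13638 to 15750, minus strand), had 4.13 and 40.1 FPKM, 9.71-fold higher (7.89 to 12.1). MSTRG.4022, 2 exons on chromosome 5 (19614674 to 19615539, minus strand), had 17.3 and 142 FPKM, 8.20-fold higher (6.90 to 9.81). It lies 1514 bases past the end of LOC100254884 on the same strand, whose annotated locus was listed at 0 in both libraries. That value leaves out an assembled model without strand that carries the gene's name, 373 bases past its end.

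MSTRG.3729, 1 exon on chromosome 5 (6916602 to 6917183, minus strand), had 39.7 and 279 FPKM, 7.04-fold higher (6.38 to 7.78). The gene it lies beside on the opposite strand, LOC100247786, 1488 bases away, had 44.2 and 42.7 FPKM. MSTRG.392, 1 exon on chromosome 1 (4401617 to 4402055), had 14.04 and 87.9 FPKM, 6.26-fold higher (5.17 to 7.65). Its neighbour LOC100250945, on the opposite strand 3470 bases away, had 15.3 and 13.0 FPKM. In both cases the locus was several-fold higher next to a gene at about the same level in the libraries.

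MSTRG.12204 on chromosome 15 (16774475 to 16775164, no strand) had 2.57 and 21.9 FPKM, 8.53-fold higher (6.01 to 12.5), and MSTRG.4133 on chromosome 5 (23380136 to 23380436) had 0.899 and 11.1 FPKM, 12.3-fold higher (5.04 to 39.2). The wide interval of MSTRG.4133 comes from 5.32 fragment equivalents in the control. MSTRG.11086, a spliced locus on chromosome 14 (7862184 to 7923166) with 3 transcripts, had 11.3 and 68.0 FPKM, 6.03-fold higher (4.86 to 7.55). MSTRG.11088, inside its span on the other strand and outside the rule for named loci (picked for its values), had 7.34 and 30.5 FPKM.

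MSTRG.17301 was listed at 0 for the control, whereas the yeast library gave 97.4 FPKM from 1154 fragment equivalents. It is a single exon without strand at the first 561 bases of a scaffold, and no other model overlaps it. The annotated gene of that scaffold, LOC100855316, 3801 bases away, had 83.9 and 65.5 FPKM, so the scaffold was covered in both libraries. An exact 0 in tables of FPKM can be a failed estimate, and no fold is given.

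The other loci listed at 0 in 1 library and at 5 FPKM or more in the other, MSTRG.7818, MSTRG.11848 and MSTRG.16734, each had a twin: a model on the opposite strand over nearly the same span. Twins were defined after these values were seen, as models on opposite strands that overlap by at least 90% of the shorter span, where the shorter is at least 50% of the longer. There were 14 such pairs, 12 of 2 unnamed loci and 2 of an unnamed locus with a named model, and 26 unnamed loci (2.68%) were in them. Of these 26, 6 (23.1%) were at least 2-fold higher and 7 (26.9%) at least 2-fold lower. The shares were 11.0% and 5.94% in the 943 other unnamed loci and 6.26% and 3.66% in all measured genes. In 10 pairs either strand was past 2-fold, and in 7 of these 10 the sum of both strands was within 2-fold, on ratios with the pseudocount. This counts MSTRG.3451 with MSTRG.3452 as within 2-fold, although their sums of 1.90 and 4.74 FPKM are 2.50-fold apart without the pseudocount.

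On chromosome 15, MSTRG.11848 (1 to 454, plus strand) was listed at 64.8 FPKM for the control and 0 for the yeast library. Its twin MSTRG.11847 (minus strand) had 1282 and 988 FPKM, and the sum was 0.734 times the control. On the scaffold of MSTRG.16735, the twin MSTRG.16734 (100557 to 101124, minus strand) had 23.7 and 0 FPKM, and the sum was 0.766 times the control. In both pairs the strand listed at 0 had been the minor one in the control.

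At MSTRG.2399 on chromosome 4 (629960 to 630695, plus strand) the strands went opposite ways. The locus had 377 and 852 FPKM, 2.26-fold higher (2.19 to 2.33). A named model of the same start and end on the minus strand, assigned to LOC100252590 although the annotated gene lies 1957 bases away, had 752 and 0 FPKM. The sum was 1129 FPKM in the control and 852 in the yeast library, 0.754 times, so the sum was lower where the unnamed strand was higher.

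MSTRG.7818 on chromosome 9 (21281931 to 21282422, 3 exons, minus strand) was listed at 0 for the control and 150.2 FPKM for the yeast library, while its plus-strand twin MSTRG.7819 (21281962 to 21282239) had 28.3 and 2.94 FPKM. Here the sum was also past 2-fold, at 28.3 and 153 FPKM, 5.42-fold higher. These twins differ in length, at 396 and 278 bases, so the size of that fold depends on how fragments were divided between them. MSTRG.7818 held 0 and 1256 fragment equivalents, and MSTRG.7819 held 155 and 17.25. MSTRG.7817, a plus-strand model whose 4 exons are spread from 21261553 to 21374903 across this site, had 1.502 and 15.2 FPKM, 10.1-fold higher (4.89 to 24.2). The pair of MSTRG.11086 with MSTRG.11087 also had a higher sum, 5.11-fold, and MSTRG.4106 with MSTRG.4107 on chromosome 5 a lower one, 0.349 times (7.24 and 2.53 FPKM).

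Where twins had the same start and end, their FPKM was often equal. Of 5 such pairs, 4 had values within 1% of each other in the control and 2 in the yeast library. MSTRG.5935 and MSTRG.5936 on chromosome 7 (17344271 to 17345205) both had 53.1 and 56.7 FPKM. MSTRG.5553 and MSTRG.5554 on chromosome 7 (5251115 to 5251691) had 2.71 FPKM each in the control, while the yeast library listed them at 10.6 and 0 FPKM. The value of a single strand in these pairs is therefore uncertain, while the sum does not depend on how fragments were divided between models of one length. For twins of unequal length the sum depends in part on that division.

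**Figure D4:**
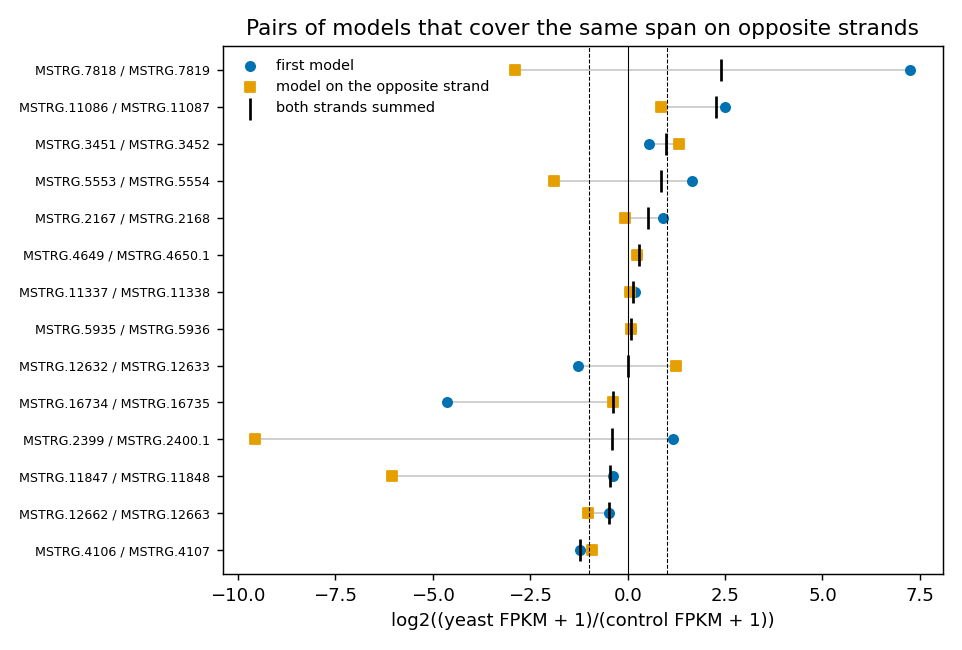
Log2 ratio of yeast over control (FPKM + 1) for the 14 pairs of models that cover the same span on opposite strands, 1 row per pair, with circles and squares for the 2 strands and a vertical bar for their sum. Single strands lie as far out as 7.24 and -9.56, whereas 11 of the 14 sums lie between the dashed lines at 2-fold.

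Apart from the twins MSTRG.11848, MSTRG.16734 and MSTRG.7819, the lowest ratio was that of MSTRG.17174, a strandless exon on a scaffold without annotated genes (5881 to 6910). It had 13.7 and 1.81 FPKM, 0.133 times the control (0.0922 to 0.186). MSTRG.6506 on chromosome 8 (12983832 to 12985037, no strand) had 17.0 and 5.21 FPKM, 0.306 times (0.250 to 0.374). It lies 1483 bases before the start of PIP2;3, an aquaporin gene, which had 34.6 and 6.99 FPKM, and so both were lower in the yeast library.

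The 5 remaining of the 10 lowest were close to 2-fold. MSTRG.8214 on chromosome 10 (7866469 to 7866759) had 129 and 60.5 FPKM, 0.468 times (0.412 to 0.531), and MSTRG.9276 on chromosome 12 (3361850 to 3362335) had 86.3 and 41.5 FPKM, 0.481 times (0.427 to 0.541). MSTRG.9204 on chromosome 12 had 29.99 and 13.5 FPKM, MSTRG.5697 on chromosome 7 had 18.8 and 8.35 FPKM and MSTRG.3281 on chromosome 5 had 15.1 and 6.44 FPKM. With ratios rescaled in that way these 5 loci were within 2-fold, with log2 ratios from -0.85 to -0.74. The most abundant locus 1 to 5 kb from a gene, MSTRG.15441 on chromosome 19 (7441157 to 7441887), was within 2-fold at 393 and 225 FPKM, next to the very abundant LOC100253748 (11820 and 11029 FPKM).

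For 455 loci the nearest annotated gene had an FPKM of at least 1 itself, and the log2 ratios of locus and gene could be set side by side. Spearman's rho across loci was 0.30 for 106 loci within 1 kb, 0.22 for 197 at 1 to 5 kb, 0.18 for 117 at 5 to 20 kb and 0.29 for 35 beyond 20 kb. Both values come from the same 2 libraries, and loci near a gene can share its fragments, so these are descriptions without a test. Of 54 higher loci with such a gene, 43 had a gene within 2-fold, 10 a higher gene and 1 a lower one. Of 33 lower loci, 30 had a gene within 2-fold, 1 a lower gene, the PIP2;3 just named, and 2 a higher one. Over all 455 loci, 27 of the genes (5.93%) were higher and 15 (3.30%) lower. The control value was under 1 FPKM in 28 of the 54 higher loci, which thus passed the minimum through the yeast library, where they are high. Among the 285 loci that reached 1 FPKM in both libraries, 26 were higher and 2 of these had a higher gene. Within 1 kb, 5 of 9 higher loci had a higher gene, all 5 of them with a control value under 1 FPKM. Of the 2 loci there that reached 1 FPKM in both libraries, none had one, so nothing is read from that share.

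The 10 higher loci with a higher gene, picked out after their values were seen, all lay before the start of that gene. In 8 of them the control value was under 1 FPKM, so they had passed the minimum through the yeast library alone, and MSTRG.7503 and MSTRG.11772 are the other two. The naming boundary leaves strandless loci no place within 2 kb past a gene's end, and 8 of the 10 have no strand. MSTRG.7503, 1 exon on chromosome 9 (5349708 to 5350163, minus strand), had 54.8 and 305 FPKM and lies 6191 bases before ABC (synonyms VvABCG44 and VvPDR14), a transporter gene on the same strand at 152 and 747 FPKM. MSTRG.11772 on chromosome 14 (29293775 to 29294885) had 6.66 and 33.8 FPKM, 1569 bases before LOC100242301 at 23.3 and 127 FPKM. MSTRG.8976 on chromosome 11 was listed at 0 for the control and 2.11 FPKM for the yeast library, 1789 bases before LOC100267215 at 187 and 766 FPKM. The FPKM of the locus was under that of the gene in both libraries in 8 of the 10 cases. The exceptions were MSTRG.4133, above LOC109122638 (0.208 and 2.10 FPKM) in both, and MSTRG.16581, at 0.566 and 3.76 FPKM beside LOC109122071 at 0.399 and 4.60 FPKM.

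**Figure D5:**
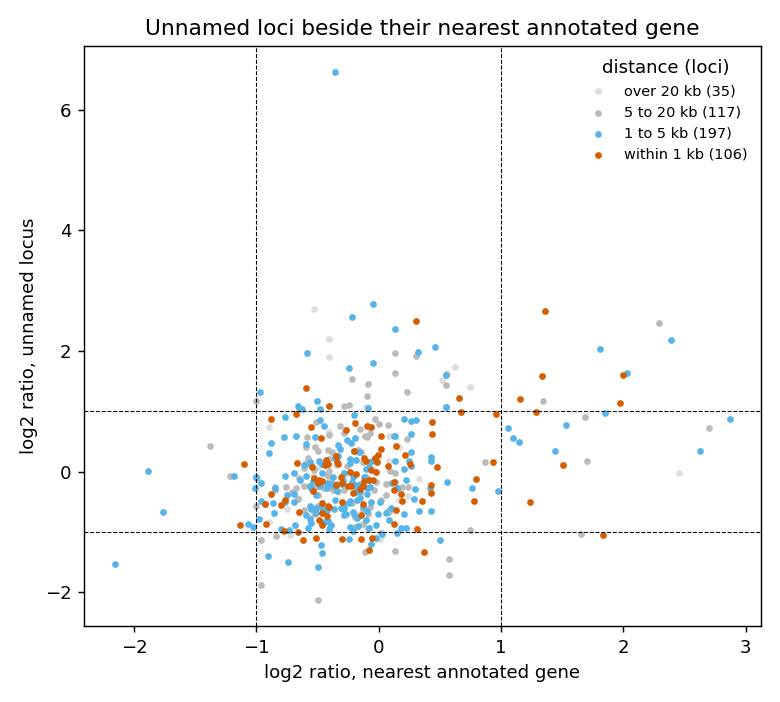
Log2 ratio of yeast over control (FPKM + 1) of 455 unnamed loci (vertical) and of their nearest annotated gene (horizontal), 1 point per locus, coloured by distance, with dashed lines at 2-fold. Most loci past 2-fold sit above or below genes within 2-fold, and 10 loci lie in the upper right corner where both are higher.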

How the data were processed

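Each library has a table of 53908 transcript models, 48802 annotated and 5106 assembled, with position, strand, exon number and length. Per the file headers, the deposited tables also give FPKM and a coverage signal, taken as mean depth per base. HISAT2 and HTSeq 0.6.1 are named in the submitters' processing notes without roles, and the genome build was not given in the sources used here. The authors' deposited table of gene values is named FPKM, but for 69.1% of 934 loci its control value was more than 2-fold off the FPKM of the transcripts, so it was treated as a score and used as an alternative only (99.8% of these loci had a plain log2 ratio within 0.1 of that from FPKM).

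FPKM was summed per locus, and per gene name for the other genes in counts over all genes. A neighbour's FPKM is the sum over models with its name within its own locus, so a model of that name in another locus is left out. Ratios used a pseudocount of 1. Aligned bases are coverage times length, and 300 of them were taken as 1 fragment, because 26.9% of control transcripts with 100 to 1000 aligned bases lay within 0.5 of a multiple of 150. Distances are between spans of annotated models. Chromosome numbers and synonyms were read from RefSeq's gene table for a different grape assembly, through shared symbols. On each chromosome at least 97.8% of matched genes shared the number. Loci named in the text are the 10 highest and 10 lowest ratios with at least 10 FPKM and 30 fragment equivalents, the 10 most abundant, the most abundant of each kind of place, the extremes of exon number, length and transcripts, and those beside the minimum. Examples of twins, neighbours in the same direction and the chromosome 5 stretch fall outside this rule and were picked for their values. Members, lists and rules were chosen with earlier results of these data known. The step that makes calls at 2-fold was run on made-up data, for loci with a mean FPKM of at least 10 only. How well differences close to 2-fold are called was not tested. Variation between libraries of the same group was not tested either, since each group holds 1 library. The steps for neighbours, twins and intervals were run on small made-up examples, which do not test how well the intervals cover. Work was done in Python 3.11.15 with pandas 2.3.3 and SciPy 1.17.1.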

Additional observations from a re-analysis of the deposited data

How the results depend on the processing

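No paired analysis was possible because neither group holds more than 1 library, which also leaves no replicate to omit. The counts of loci past 2-fold, 110 higher and 63 lower, moved with the pseudocount and with filters on low values. They were 192 and 172 with a pseudocount of 0.1 (52.7% higher), 36 and 8 with a pseudocount of 5 (81.8% higher), and 39 and 11 of 241 loci with a mean FPKM of at least 5 (78.0% higher). The same counts over all genes were not made under these settings. With at least 30 fragment equivalents, an alternative chosen after seeing the data, they were 67 and 36 of 618 loci. They stayed within 1.5 times with no filter, with aligned bases, after rescaling, without loci that overlap a named model, and with twins summed (106 and 57) or left out (104 and 56), the last 2 also chosen after seeing the data. The median log2 ratio of -0.14 was -0.18 with a pseudocount of 0.1, -0.061 with a pseudocount of 5 and 0.092 after rescaling. At 10 FPKM or more the share with 1 exon was 75.3% and without strand 41.6%. The share of higher loci with a higher gene was 55.6% within 1 kb (5 of 9) and 27.6% within 5 kb (8 of 29). For loci at 1 FPKM or more in both libraries, also chosen after seeing the data, it was 0% within 1 kb (0 of 2). Without twins the counts at 10 FPKM or more were 33 higher and 7 lower, against 37 and 10. Of 23 named loci past 2-fold, 17 stayed so under each of 5 settings and 0 of the 23 changed sign. Those that came within 2-fold were 5 of the lowest loci, each of them after rescaling, and MSTRG.12663, at -0.27 with a pseudocount of 5 and in the authors' gene table. The median locus has 22.9 fragment equivalents in the control, so folds of most loci near 1 FPKM are not resolved at this depth.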

Other observations

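On chromosome 5, unnamed loci that lie next to each other were mostly higher in the yeast library. The stretch was selected for its values. It begins with MSTRG.3729 (39.7 and 279 FPKM), followed by MSTRG.3730 (6919534 to 6921086) at 4.39 and 17.9 FPKM, MSTRG.3731 (6938940 to 6939811) at 8.003 and 8.22 FPKM and MSTRG.3732 (6946333 to 6947039) at 4.38 and 13.1 FPKM. MSTRG.3734 (6989250 to 6989818, 2 exons, minus strand) stood at 127 and 265 FPKM. Between the last 2, an unnamed transcript of the locus MSTRG.3733, which also holds a transcript named LOC100264939 and so is no member, stood at 96.5 and 283 FPKM. Of the 5 members, 4 were at least 2-fold higher and MSTRG.3731 was at about the same level in the libraries. The share at least 2-fold higher was 11.4% over all unnamed loci and 6.26% over all measured genes. Because the stretch was picked for its values, nothing is read from its count.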
